A study of Mus musculus with 6 samples.

Results

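Chemokines are small secreted proteins that attract leukocytes, and their receptors are membrane proteins that couple to heterotrimeric G proteins. The ligands are named CC, CXC or CX3C after the spacing of their first cysteines. Atypical receptors bind chemokines and remove them without G protein signalling. In bone, Ccl9 and its receptor Ccr1 are known from mouse osteoclast cultures, and Cxcl12 with Cxcr4 keeps blood-forming cells and osteoclast precursors in the marrow.

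The family was taken by gene symbol as the rows whose names begin with Ccl, Ccr, Cxcl, Cxcr, Xcl, Xcr or Ackr and a digit, with Cx3cl1, Cx3cr1 and Ccrl2. This gave 55 of the 28795 genes in the table, namely 32 ligands (20 CC, 11 CXC and Cx3cl1), 18 receptors and 5 atypical receptors. RNA sequencing measured them in bone marrow monocytes of the mouse, precursors of macrophages and osteoclasts that were grown with the survival factor M-CSF at 50 ng/ml. RANKL, the cytokine that drives osteoclast formation, was given at 50 ng/ml, with 3 libraries at day 0 and 3 at day 5 of exposure. The labels give neither strain, age nor sex of the mice, and nothing in them says whether replicates were separate cultures or mice. The p-values therefore describe the spread among these 6 libraries, which may be technical. The treatment label reads RANKL on both days, so the time set the groups. No day 5 culture without RANKL was analysed here, so RANKL and time in culture cannot be told apart.

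Library totals ran from 64616609 to 82721513 counts. The 10 osteoclast markers were all called higher at day 5, and their summed level went from 153 to 213 FPKM (the authors' fragment counts scaled for gene length and depth) at day 0 to between 11022 and 11813 at day 5. Of 10 macrophage markers, 8 were called lower and 2 were not called. Stromal and osteoblast markers other than Cxcl12 summed to 1513 to 2212 FPKM at day 0 and 1158 to 1274 at day 5, so the cultures held transcripts outside the labelled cell type on both days. The library day 0 replicate 1 stood apart with 4.09% of its counts in the gene CT010467, against 0.158% to 0.507% elsewhere.

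The promoters below are those of the receptors and ligands on which the results turn: Ccr1, Ccr3 and Ccl9 rose, while Cx3cr1 and Ccl6, the neighbour of Ccl9, fell. They are from RefSeq on build GRCm38.p6, each with 250 bases before and 50 from the transcript start, 5′ to 3′ on the gene's strand. Of the 55 members, 42 matched the promoter table by symbol. Capitals mark matches, on either strand, to 5 short motifs named for NF-kB, AP-1, NFAT, PU.1 and the TATA box, whose letters are given with their counts after the sequences. Matches can overlap each other. The windows are chr9:123968643-123968942 (minus strand) for Ccr1, chr9:124021721-124022020 (plus) for Ccr3, chr9:120068247-120068546 (minus) for Cx3cr1, chr11:83578587-83578886 (minus) for Ccl9 and chr11:83593038-83593337 (minus) for Ccl6.
Ccr1: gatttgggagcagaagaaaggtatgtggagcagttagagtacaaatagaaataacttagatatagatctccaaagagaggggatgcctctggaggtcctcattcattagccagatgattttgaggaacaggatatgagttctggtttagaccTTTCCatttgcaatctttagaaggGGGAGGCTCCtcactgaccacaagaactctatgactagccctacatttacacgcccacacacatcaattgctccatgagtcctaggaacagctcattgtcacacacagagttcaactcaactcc
Ccr3: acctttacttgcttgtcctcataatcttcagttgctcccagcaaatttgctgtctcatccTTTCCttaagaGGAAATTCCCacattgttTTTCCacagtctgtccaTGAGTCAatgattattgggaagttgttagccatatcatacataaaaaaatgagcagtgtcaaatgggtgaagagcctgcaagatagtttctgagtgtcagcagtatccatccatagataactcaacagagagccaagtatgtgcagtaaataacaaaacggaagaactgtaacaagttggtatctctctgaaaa
Cx3cr1: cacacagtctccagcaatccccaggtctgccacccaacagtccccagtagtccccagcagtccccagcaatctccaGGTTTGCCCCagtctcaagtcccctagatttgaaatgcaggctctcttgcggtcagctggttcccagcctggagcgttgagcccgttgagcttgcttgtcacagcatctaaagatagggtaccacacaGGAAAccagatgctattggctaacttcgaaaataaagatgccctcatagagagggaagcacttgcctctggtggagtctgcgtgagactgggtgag
Ccl9: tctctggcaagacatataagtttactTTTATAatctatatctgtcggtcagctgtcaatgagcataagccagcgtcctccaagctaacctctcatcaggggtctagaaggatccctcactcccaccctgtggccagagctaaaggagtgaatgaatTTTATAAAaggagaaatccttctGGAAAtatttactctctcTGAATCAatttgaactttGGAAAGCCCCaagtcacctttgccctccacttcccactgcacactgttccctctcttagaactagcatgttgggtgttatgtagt
Ccl6: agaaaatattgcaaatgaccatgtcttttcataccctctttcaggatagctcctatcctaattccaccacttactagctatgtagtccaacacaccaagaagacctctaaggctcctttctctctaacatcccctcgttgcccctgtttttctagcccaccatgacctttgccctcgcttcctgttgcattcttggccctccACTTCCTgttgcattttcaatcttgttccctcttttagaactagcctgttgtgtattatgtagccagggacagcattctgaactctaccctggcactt
The AP-1 letters, TGANTCA, lay in the Ccr3 window from base -144 and in the Ccl9 window from base -53, counted from the transcript start. Of all 32851 promoter windows, 7.81% held them. They were in 2 of the 3 members called higher at day 5 and in 0 of the 8 members called lower that had a window. The NF-kB motif, searched as GGG and CC with any 5 bases between them, was in 3 of 3 and 4 of 8, against 50.8% of all windows. The NFAT letters, GGAAA, were in 3 of 3 members called higher and 5 of 8 called lower, against 61.3% of all windows. The PU.1 letters, AGGAAGT, were in 0 of the 3 and in 3 of the 8, Ccl6 among them, against 9.35% of all windows. The TATA box letters, TATAAA, were in 1 of the 3, which was Ccl9, and in 2 of the 8, against 13.6% of all windows. Of the 42 members with a window, 8 held the AP-1, 25 the NF-kB and 32 the NFAT letters. The PU.1 letters were in 8 of them and the TATA box letters in 13. A member counted where any of its windows matched, while the shares of all windows are per window. A match is a run of letters and not a shown binding site.

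Between day 0 and day 5 the leading receptor and the leading ligand of the family changed. Ccr1 and Ccr3 rose, Cx3cr1 fell, Ccl9 rose, and the other CC ligands that passed the filter described next fell. Of the 55 members, 20 passed the filter of at least 1 FPKM in at least 3 of the 6 libraries. A member was called where edgeR's quasi-likelihood test gave an adjusted p, over all genes tested, below 0.05 with a change of 1 or more on the log2 scale. At day 5, 3 of the 20 were higher, 12 lower and 5 not called, while of all 11908 genes tested 5.84% were higher and 6.47% lower, 12.3% in all. The median log2 difference of the 20 was -1.12, against -0.0041 over all genes tested. Of the 20, 4 members, Cxcr3, Cxcr6 and Ackr4 among them, passed only through their day 0 libraries and so had to be lower at day 5. Tested without the filter, 6 of 54 members were higher and 14 lower, where 4.65% and 3.96% of 26750 genes were, 8.61% in all. By the adjusted p alone 3 of the 20 were higher and 15 lower, against 26.6% and 28.8% of genes tested, 55.5% in all. In CPM the libraries of the days did not overlap for 18 of the 20, with day 5 higher for 3 and lower for 15. Over all genes tested this held for 63.3%, with day 5 higher for 31.1% and lower for 32.2%. On log2(FPKM + 1) with limma, 6 of the 12 members called lower missed the size threshold: Ccl2, Ccl4, Ccl7, Ccl12, Cxcr3 and Ackr4, at -0.54 to -0.97.

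**Figure D1:**
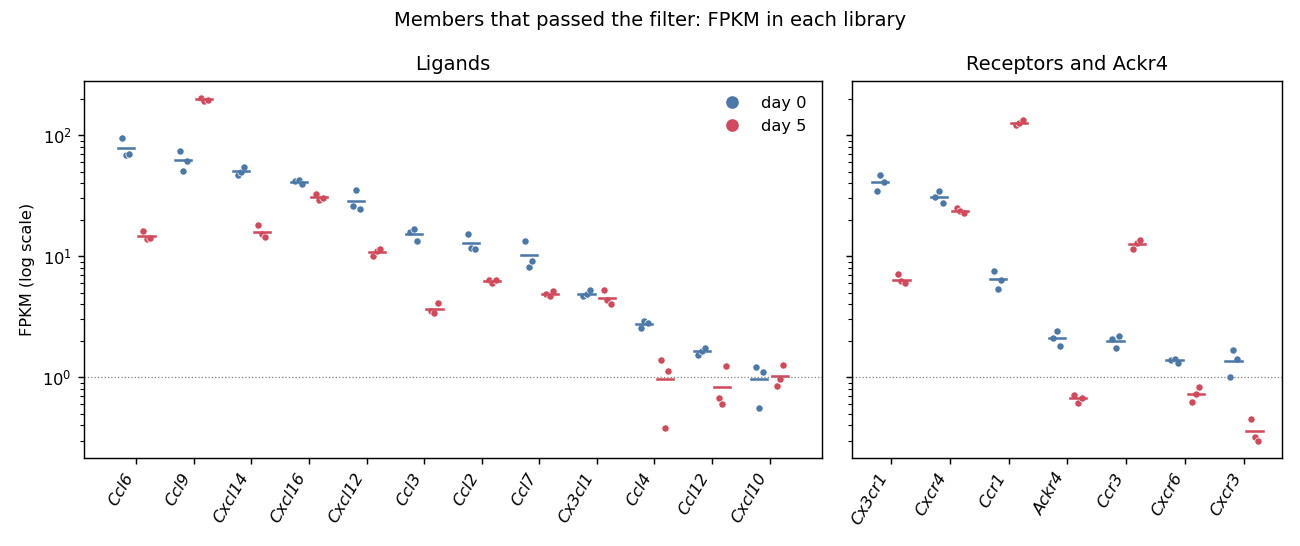
FPKM on a log axis for the 12 ligands (left) and for 6 receptors and Ackr4 (right) that passed the filter, ordered by their mean at day 0. Points are libraries, 3 per day, bars are means, and the dotted line is 1 FPKM; Ccl9 reached 193 to 202 FPKM and Ccr1 120 to 134 FPKM at day 5.

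Ccr1 is a receptor for Ccl3, Ccl5, Ccl6, Ccl7 and Ccl9 in the mouse. It had 7.60, 5.31 and 6.37 FPKM at day 0 and 120, 126 and 134 FPKM at day 5, so every day 5 library lay far above every day 0 library. The rise was 18.9-fold, a log2 difference of 4.24 ± 0.13 (SE; edgeR adjusted p = 9.77e-10), the largest of the 20 in size. Ccr3, the eosinophil receptor for eotaxins (Ccl11 and Ccl24), had 2.07, 1.73 and 2.19 FPKM at day 0 and 11.4, 12.7 and 13.6 at day 5. The rise was 6.01-fold (log2 2.59 ± 0.12, edgeR adjusted p = 1.15e-08), again with no overlap between the days. The eotaxins themselves were low on both days, with at most 0.170 FPKM for Ccl11 and 0.570 for Ccl24 in any library.

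Cx3cr1, the fractalkine receptor of monocytes and resident macrophages, had the highest level of any receptor at day 0, with 34.4, 47.0 and 40.9 FPKM, and had 7.08, 6.20 and 5.97 at day 5. It fell 6.61-fold (log2 -2.72 ± 0.11, edgeR adjusted p = 5.45e-09). In these bulk samples fewer cells of a type and less RNA per cell cannot be told apart. The 10 macrophage markers summed to 12149 to 14596 FPKM at day 0 and 4704 to 5548 at day 5, and most of this sum was Lyz2, with 12133 FPKM on average at day 0 and 3748 at day 5. Of the 10, 8 were called lower, while Cd68 had 594 FPKM at day 0 and 907 at day 5 (log2 0.55, edgeR adjusted p = 2.04e-04), under the size threshold. Their part in the fall of Cx3cr1 was not tested.

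Cxcr4, the Cxcl12 receptor, changed less. Its values were 30.7, 34.6 and 27.3 FPKM at day 0 and 24.9, 23.5 and 22.6 at day 5. The days did not overlap, and the log2 difference of -0.44 ± 0.09 (edgeR adjusted p = 0.00215) lay under the size threshold. Cxcr3, the receptor for Cxcl9 and Cxcl10 on T cells, was near the filter at 1.01, 1.68 and 1.42 FPKM and had 0.450, 0.320 and 0.30 at day 5 (log2 -1.97 ± 0.28, edgeR adjusted p = 1.27e-04). Cxcr6, the receptor for Cxcl16, had 1.4, 1.42 and 1.32 FPKM against 0.620, 0.730 and 0.830. Its log2 difference was -0.98 ± 0.21 (edgeR adjusted p = 0.00242), just under the size threshold, and -1.08 without day 5 replicate 3. Cxcr3 and Cxcr6 passed the filter only through day 0, which fixed their direction. Without the filter their log2 differences were -1.95 and -0.96 (edgeR adjusted p = 0.00125 and 0.00816). Of 10 listed T and NK cell markers 7 were found, and they summed to 4.23 to 5.37 FPKM at day 0 and 6.44 to 7.11 at day 5. Of the 7, Trac was called higher (2.05 to 4.56 FPKM, 2.13-fold). Cd4 had 2.68 FPKM on average at day 0 and 2.13 at day 5, with no overlap between the days. Its log2 difference of -0.39 (edgeR adjusted p = 0.0292) lay under the size threshold. The other 5 stayed under 1 FPKM in every library, and the part of these markers in the Cxcr3 and Cxcr6 values was not tested.

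Ackr4, an atypical receptor that takes up Ccl19, Ccl21 and Ccl25, was the member of its class that passed the filter. It had 2.10, 2.41 and 1.80 FPKM at day 0 and 0.720, 0.610 and 0.680 at day 5, a 3.26-fold fall (log2 -1.71 ± 0.15, edgeR adjusted p = 3.20e-06). Ackr4 passed only through its day 0 libraries, which fixed its direction. Without the filter its log2 difference was -1.68 ± 0.14 (edgeR adjusted p = 4.55e-05). In GENCODE M21, 8.90% of its exon bases also lie in exons of Acad11 on the opposite strand. Acad11 had a mean of 2.94 FPKM at day 0 and 7.55 at day 5, so its direction is opposite, and the pair's counts are uncertain because the sources used here do not say whether counting used strand. Ackr3, a scavenger of Cxcl12, stayed between 0.580 and 0.910 FPKM and was not tested with the filter. Tested without it, its log2 difference was -0.015 ± 0.22 (edgeR adjusted p = 0.987).

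**Figure D2:**
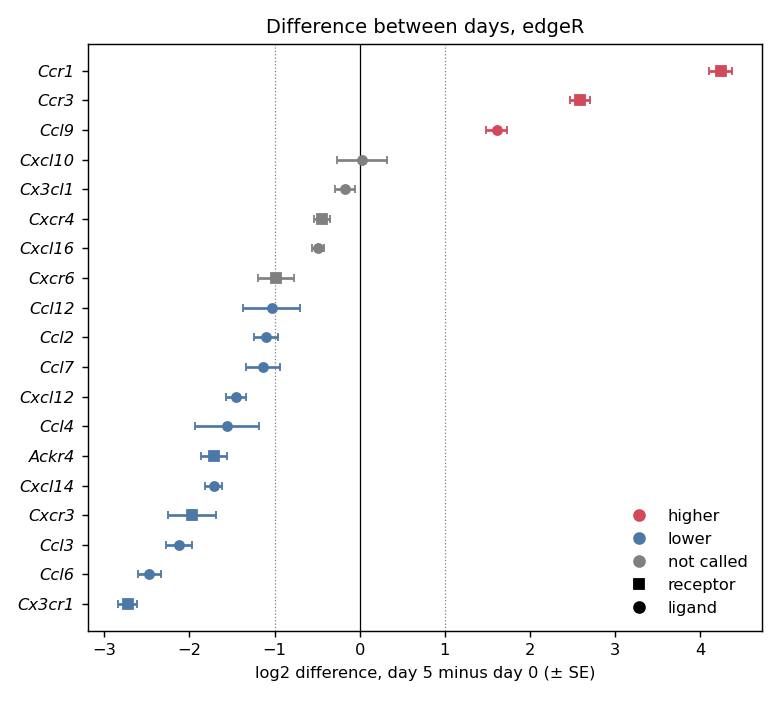
Log2 difference of day 5 minus day 0 with its SE for 19 of the members that passed the filter (n = 3 libraries a day), circles for ligands and squares for receptors. Colour gives the call and dotted lines the size threshold of 1; Ccr1 and Ccr3 are farthest to the right and Cx3cr1 and Ccl6 farthest to the left.

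Ccl9, a mouse CC chemokine that binds Ccr1, was the most abundant ligand at day 5. It had 74.3, 50.6 and 60.7 FPKM at day 0 and 202, 193 and 196 at day 5. The rise was 3.04-fold (log2 1.61 ± 0.13, edgeR adjusted p = 1.16e-06), and the day 5 libraries lay within a narrow range above all of day 0. Ccl6, a related mouse CC chemokine and also a Ccr1 ligand, led the ligand members at day 0 with 94.9, 68.3 and 70.3 FPKM. It had between 13.96 and 16.1 in the 3 day 5 libraries. It fell 5.54-fold (log2 -2.47 ± 0.14, edgeR adjusted p = 5.54e-08). The ratio of Ccl9 to Ccl6 in FPKM was 0.741 to 0.864 at day 0 and 12.5 to 14.01 at day 5.

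Ccl3 and Ccl4, inflammatory chemokines of macrophages and lymphocytes, were both lower. Ccl3 had 15.8, 16.8 and 13.4 FPKM at day 0 and 3.53, 3.38 and 4.09 at day 5, a 4.34-fold fall (log2 -2.12 ± 0.15, edgeR adjusted p = 5.25e-07). Ccl4 had 2.54, 2.90 and 2.79 FPKM at day 0 and 1.38, 0.380 and 1.13 at day 5, with a wide spread between the day 5 libraries (log2 -1.56 ± 0.38, edgeR adjusted p = 0.00461). Ccl5, a T cell and macrophage chemokine, did not pass the filter, with 1.73, 1.11 and 0.960 FPKM at day 0 and 0.220, 0.340 and 0.570 at day 5. Tested without the filter its log2 difference was -1.79 ± 0.44 (edgeR adjusted p = 0.0170).

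Ccl2, Ccl7 and Ccl12 are monocyte attractants that bind Ccr2. Ccl2 had 15.3, 11.8 and 11.4 FPKM at day 0 and 6.33, 6.0 and 6.41 at day 5, a log2 difference of -1.10 ± 0.14 (edgeR adjusted p = 5.82e-05). Ccl7 had 13.4, 8.21 and 9.19 FPKM against 4.91, 4.66 and 5.14 (log2 -1.13 ± 0.20, edgeR adjusted p = 5.95e-04). Both were highest in day 0 replicate 1, the library rich in CT010467, and without it their log2 differences were -0.92 and -0.86, under the size threshold. Ccl12 was near the filter with 1.54, 1.66 and 1.75 FPKM against 0.680, 0.600 and 1.23. Its call (log2 -1.03 ± 0.33, edgeR adjusted p = 0.0211) was lost without TMM scaling (-0.97) and without day 0 replicate 3 (-0.96). It was also lost without day 5 replicate 1 (-0.91), without day 5 replicate 2 (-0.85) and without the filter on low values (-1.01, edgeR adjusted p = 0.0935). Under filterByExpr and at an FPKM of at least 0.1 the edgeR adjusted p was 0.0652 and 0.0548. With limma on log2(FPKM + 1) and log2(FPKM + 0.1) the difference was -0.54 and -0.96, under the size threshold. The call stood under DESeq2, RLE scaling, the replicate block and with each other library left out. Ccr2 itself, named after its values were seen, had 0.310 to 0.380 FPKM at day 0 and 0.070 to 0.10 at day 5 and was not tested with the filter (without it log2 -1.93 ± 0.25, edgeR adjusted p = 5.83e-04).

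Of the CXC ligands, Cxcl14 and Cxcl12 fell. Cxcl14, a chemoattractant for myeloid cells made by many epithelial and stromal cells, had 47.0, 49.2 and 54.6 FPKM at day 0 and 18.1, 15.3 and 14.5 at day 5, a 3.28-fold fall (log2 -1.71 ± 0.10, edgeR adjusted p = 7.67e-08). Cxcl12 had 25.8, 35.3 and 24.7 FPKM against 10.1, 11.1 and 11.5, a 2.74-fold fall (log2 -1.45 ± 0.12, edgeR adjusted p = 1.26e-06). Both were separated by day in every library. Cxcl12 is a stromal gene: of the other 12 stromal and osteoblast markers 8 were tested and 1 was called lower. The median log2 difference of those 8 was -0.55. Col1a1, Col1a2 and Col3a1 were the most abundant of the 12, and 4 of the 12 stayed under 1 FPKM in every library. Of these 4, Bglap had 0.287 FPKM on average at day 0 and 0.030 at day 5. Dcn (0.327 and 0.720) and Lum (0.127 and 0.380) were higher at day 5, and Lepr overlapped between the days. Pdgfra was tested and not called, with a log2 difference of 0.23. The part of these markers in the result was not tested. Cxcl12 was highest in day 0 replicate 2. The other 12 summed to their highest level, 2212 FPKM, in day 0 replicate 3, and most of that sum was Col1a1 (1339 FPKM there). Of the 8 tested, Col1a1, Col1a2, Pdgfra, Pdgfrb and Runx2 were highest among the day 0 libraries in replicate 3. Col3a1, Alpl and Sp7 were highest in replicate 2.

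The remaining ligands differed less. Cxcl16, a membrane-bound ligand of Cxcr6 that also takes up oxidised lipoprotein, had 41.8, 42.7 and 39.3 FPKM at day 0 and 32.5, 29.2 and 30.2 at day 5. Its log2 difference of -0.49 ± 0.07 (edgeR adjusted p = 1.29e-04) lay beyond the replicate spread and under the size threshold, and 18.3% of its exon bases also lie in exons of Zmynd15 on the opposite strand, which had under 2 FPKM on average. Cx3cl1, the membrane-anchored ligand of Cx3cr1, had 4.66, 4.83 and 5.25 FPKM against 5.25, 4.31 and 4.05, and the days overlapped (log2 -0.18 ± 0.12, edgeR adjusted p = 0.224). Cxcl10, an interferon-induced ligand of Cxcr3, had 1.21, 0.560 and 1.11 FPKM against 0.850, 0.960 and 1.27. The days overlapped there too (log2 0.027 ± 0.30, edgeR adjusted p = 0.944).

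Set side by side by receptor, Ccl9 and Ccr1 were higher at day 5. Ccl3, Ccl6 and, with the limit given above, Ccl7 are also Ccr1 ligands and were lower. Ccl5, another Ccr1 ligand, was lower in the fit without the filter (log2 -1.79, edgeR adjusted p = 0.0170). Cxcl12 fell 2.74-fold while Cxcr4 had a log2 difference of -0.44, and the ratio of Cxcr4 to Cxcl12 in FPKM went from 0.979 to 1.19 at day 0 to 1.96 to 2.48 at day 5. Cx3cr1 fell 6.61-fold while the values of its ligand Cx3cl1 overlapped between the days. All ligand members together summed to 345, 296 and 299 FPKM at day 0 and 306, 288 and 293 at day 5, and these ranges overlapped. Within that sum Ccl9 took 21.5%, 17.1% and 20.3% at day 0 and 66.0%, 66.9% and 66.9% at day 5, while Ccl6 went from 24.7% ± 2.45 to 4.96% ± 0.264 (SD, n = 3). Pf4, a chemokine outside the naming rule, is not in this sum. It had 216, 205 and 172 FPKM at day 0 and 22.6, 23.0 and 22.1 at day 5. The ligand sum and shares therefore hold for the members only. The receptor and atypical receptor members summed to 92.6, 110 and 94.7 FPKM at day 0 and 169, 172 and 181 at day 5. Ccr1 took 6.59% ± 1.69 of that sum at day 0 and 72.9% ± 1.47 at day 5, and Cx3cr1 41.0% ± 3.42 and 3.70% ± 0.458.

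**Figure D3:**
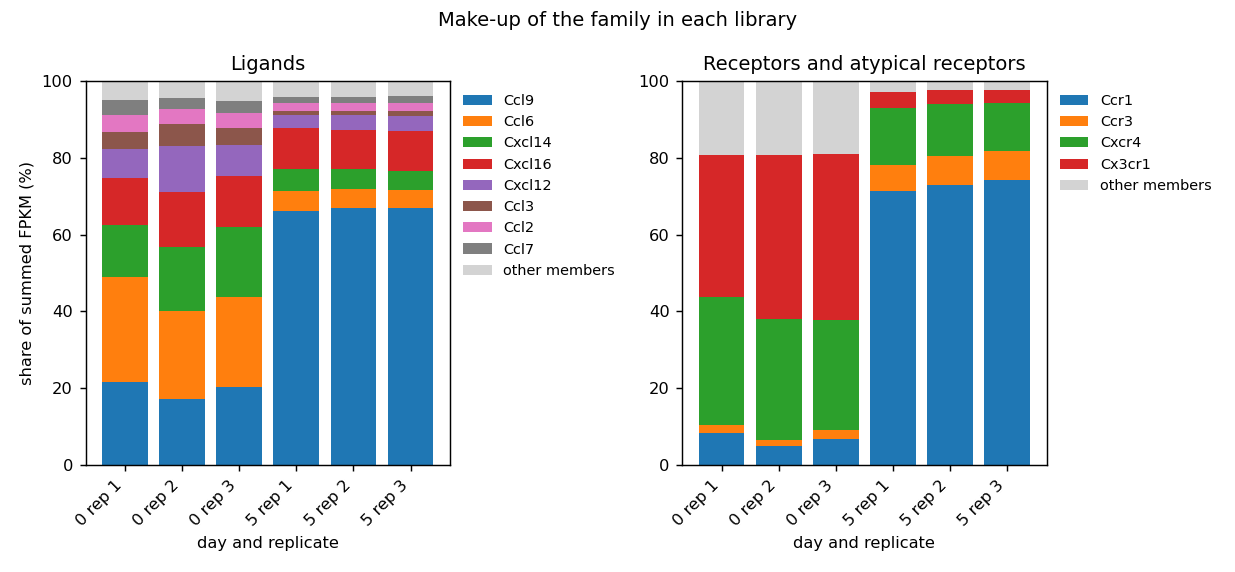
Share of the summed FPKM of all 32 ligand members (left) and of the 23 receptor and atypical receptor members (right) taken by the leading genes in each library. Bars are libraries and colours are genes; Ccl9 takes 66.0% to 66.9% of the ligand sum and Ccr1 71.3% to 74.3% of the receptor sum in the day 5 libraries.

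Many members lie next to each other, and some neighbours moved together while others moved in opposite directions. Positions are as in the deposited table, where 50 of the 55 members have the same start and end as in GENCODE M21 on mouse build GRCm38. On chromosome 9, Ccr9, Cxcr6, Xcr1, Ccr1, Ccr1l1, Ccr3 and Ccr2 lie in this order between 123678439 and 124113557. Ccr1 and Ccr3 rose there. Ccr2, 70.3 kb after Ccr3, was lower in the fit without the filter. Between Ccr1 and Ccr3 lies Ccr1l1, a Ccr1-like gene, with 0.140 to 0.270 FPKM at day 0 and 0.060 to 0.120 at day 5 (log2 -1.15 ± 0.69, edgeR adjusted p = 0.284 without the filter). None of the 50-base runs in Ccr1 or Ccr3 transcripts occur in another gene.

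On chromosome 11, Ccl5, Ccl9, Ccl6, Ccl3 and Ccl4 lie between 83525778 and 83664683, a span of 139 kb. Ccl9 and Ccl6 are 9.25 kb apart on the minus strand, and Ccl9 rose while Ccl6 fell. Ccl2, Ccl7, Ccl11, Ccl12 and Ccl8 lie between 82035571 and 82116799. Of these Ccl2, Ccl7 and Ccl12 were lower by log2 1.03 to 1.13, with the limits given above, and Ccl11 and Ccl8 did not pass the filter. Ccl8 had 0 counts in each day 0 library and 19, 44 and 0 at day 5.

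**Figure D4:**
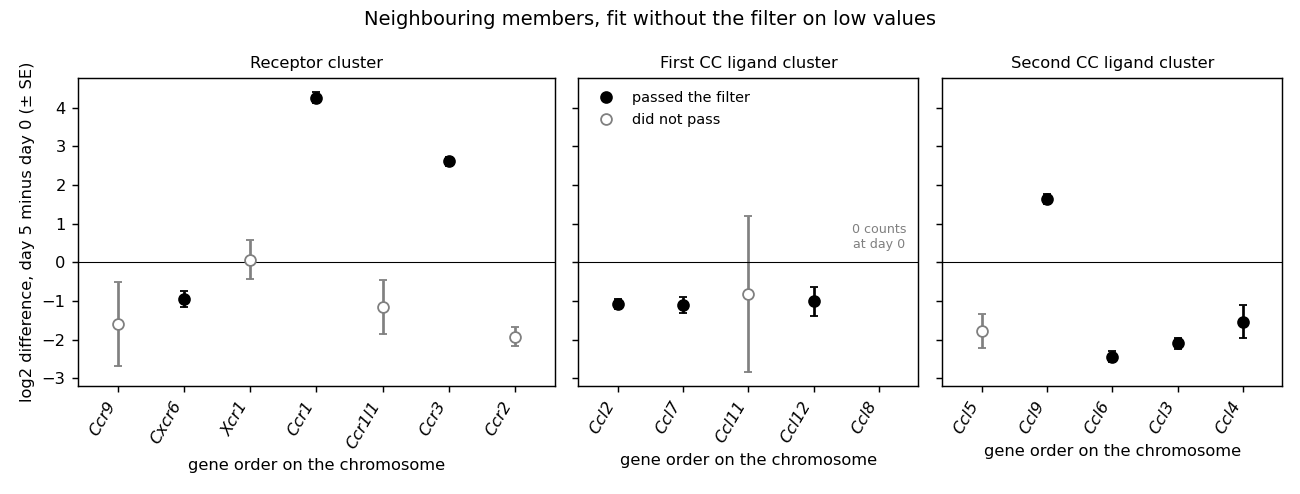
Log2 difference of day 5 minus day 0 with its SE, from the fit without the filter on low values, for members in their order along chromosome 9 (left) and chromosome 11 (middle and right). Filled points passed the filter and open points did not; Ccr1, Ccr3 and Ccl9 are the filled points above 0, and Ccl8 is not drawn because it had 0 counts at day 0.

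The 35 members that did not pass the filter had at most 1.84 FPKM in any library. Of them 20 had fewer than 100 counts over the 6 libraries together, and Ccl19, a lymph node chemokine, had 0 counts in every library. However, 52.0% of the 50-base runs in Ccl19 transcripts also occur in the gene Gm2564, and how such reads were counted is not stated. The most abundant of the 35 by mean were Ccl5, Cxcl2, Ackr3, Ccrl2, Ccl25 and Cxcl13. Cxcl2, a neutrophil attractant, had 1.84, 0.560 and 1.07 FPKM at day 0 and 0.610, 0.340 and 0.140 at day 5, and these ranges overlapped. Its log2 difference was -1.67 without the filter (edgeR adjusted p = 0.0641), and it was called lower under filterByExpr (edgeR adjusted p = 0.0258) and at an FPKM of at least 0.1 (edgeR adjusted p = 0.0251). Ccrl2, an atypical receptor that binds chemerin, had 0.920, 1.35 and 1.00 FPKM against 0.420, 0.090 and 0.320 (log2 -2.00 ± 0.47, edgeR adjusted p = 0.0133 without the filter). Ccl25, a thymic and gut chemokine, had 0.320 to 0.460 FPKM at day 0 and 0.550 to 0.690 at day 5 (log2 0.49 ± 0.20, edgeR adjusted p = 0.111 without the filter). Cxcl13, the B cell attractant, had 8, 0 and 12 counts at day 0 and 75, 77 and 55 at day 5 (edgeR adjusted p = 0.0168 without the filter).

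Of these 35, the fit without the filter called Cxcl13, Ccr7 and Cxcr2 higher and Ccl5, Ccr2 and Ccrl2 lower. Ccr7 and Cxcr2 are named here after their values were seen. Ccr7, which guides dendritic cells to lymph nodes, had 4, 0 and 0 counts at day 0 and 26, 25 and 41 at day 5. Cxcr2, the neutrophil receptor for Cxcl1 and Cxcl2, had 0 counts in each day 0 library and 51, 14 and 29 at day 5. These levels stayed at or under 0.280 FPKM for Ccr7 and 0.220 FPKM for Cxcr2. The 8 dendritic cell markers, Ccr7 among them, summed to 3.08 to 4.50 FPKM at day 0 and 2.92 to 3.03 at day 5, 7 of them under 1 FPKM in every library and Flt3 at 0. Most of this sum was Itgax, with 3.42 FPKM on average at day 0 and 2.19 at day 5, and it was not called. Zbtb46, under the filter, had 0.200 to 0.330 FPKM at day 0 and 0.390 to 0.580 at day 5, higher as Ccr7 was. The 7 neutrophil markers in the table summed to 14.1 to 18.8 FPKM at day 0 and 11.6 to 27.8 at day 5, and they moved both ways. S100a9, the most abundant, was called higher (2.15 to 14.6 FPKM, 6.56-fold), as was S100a8 (4.16-fold), while Csf3r (5.82-fold) and Mmp8 (4.36-fold) were called lower. Mpo was at 0.020 FPKM on average at day 0 and at 0 at day 5, and the part of either list in the Ccr7 and Cxcr2 counts was not tested. Ccl24 and Ccl22, also named after their values were seen, had 43, 34 and 64 against 0, 11 and 0 counts and 24, 0 and 10 against 94, 78 and 58 counts, and neither was called without the filter (edgeR adjusted p = 0.0552 and 0.0687). Under filterByExpr and at an FPKM of at least 0.1, Ccl24 was called lower (edgeR adjusted p = 0.0195 and 0.0128) and Ccl22 higher (edgeR adjusted p = 0.0283 and 0.0223). In each library 804 to 885 genes had exactly 4 counts while 332 to 395 had 3 and 227 to 272 had 5, so low counts step unevenly, and the sources used here do not say what 1 count stands for.

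Pf4, a CXC chemokine of platelets and macrophages whose symbol lies outside the naming rule, was more abundant than any member at day 0. It had 216, 205 and 172 FPKM at day 0 and 22.6, 23.0 and 22.1 at day 5, a 9.13-fold fall (log2 -3.19 ± 0.10, edgeR adjusted p = 9.77e-10). Its neighbour Ppbp, another platelet chemokine, had 0.790 to 0.860 FPKM at day 0 and 0, 0.080 and 0.800 at day 5. Itga2b and Gp1bb, platelet and megakaryocyte markers, stayed under 1 FPKM in every library.

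Chemokine receptors signal through Gi proteins, PI3K-gamma, phospholipase C-beta and Rac, and are switched off by receptor kinases, arrestins and RGS proteins. Of 57 such genes 56 were tested, and 8 were higher and 10 lower at day 5, where 5.84% and 6.47% of all genes tested were. The median log2 difference of the list was -0.30, against -0.0041 over all genes tested. Grk3, a kinase that desensitises G protein-coupled receptors, rose 12.4-fold, from 0.910 to 1.08 FPKM in the day 0 libraries to 13.0 to 13.3 at day 5 (edgeR adjusted p = 3.23e-10). Plcb2, the phospholipase C-beta of blood cells, rose 7.11-fold from 1.43 ± 0.211 to 10.7 ± 0.930 FPKM (SD, n = 3), and Plcb4, of the same family, rose 2.89-fold. Rac2, the Rac GTPase of blood cells, rose 3.36-fold from 42.9 ± 0.0503 to 150 ± 12.3 FPKM, and Gnb4, a G protein beta subunit, rose 2.78-fold. Rgs1, which shortens G protein signalling, fell 4.81-fold from 1.93 ± 0.0954 to 0.413 ± 0.0416 FPKM. Gng2, a gamma subunit, fell 3.12-fold and Pik3cg, the catalytic subunit of PI3K-gamma, fell 2.67-fold from 14.6 ± 0.842 to 5.70 ± 0.365 FPKM.

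By step of the pathway, 2 of 13 G protein subunits were higher and 1 lower. Of 14 receptor kinases, arrestins and RGS proteins 1 was higher and 4 were lower. Of 16 PI3K, phospholipase and kinase genes 3 were higher and 4 lower, and of 13 tested Rac, Rap and motility genes 2 were higher and 1 lower. Several of these counts are 1 gene, near the 5.84% higher and 6.47% lower of all genes tested. Gnai2, an inhibitory alpha subunit named after its values were seen, had 225 FPKM on average at day 0 and 158 at day 5, a log2 difference of -0.57 under the size threshold. A further list of chemokine-like proteins, chemerin genes and sheddases had 12 of 16 genes tested, with 1 higher, Sdc1, and 1 lower, Cmklr1, both named after their values were seen and also near the share of all genes tested. Cmklr1, the chemerin receptor, fell 5.22-fold from 19.1 ± 1.07 to 3.81 ± 0.602 FPKM (edgeR adjusted p = 2.31e-08), beside the low values of Ccrl2, which also binds chemerin.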

How the data were processed

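Poly(A) RNA of 6 libraries was sequenced as read pairs with a dUTP method that marks strand, per the labels' protocols. Tools named in the submitters' processing notes are fastp, HISAT2, StringTie and edgeR, and the build named there is GRCh38, a human assembly. The gene identifiers are mouse, and 99.7% are in GENCODE M21. Per the file headers the authors deposited whole-number counts per gene, not normalized, and FPKM values scaled for gene length and depth. Whether counting used strand is not stated there.

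Counts were scaled by TMM and tested with edgeR 4.0.16 (R 4.3.3) over all genes with at least 1 FPKM in at least 3 libraries. Folds are 2 to the log2 difference. Of the members that passed the filter, 1 is counted but not reported here. Named genes were the other members passing the filter, the 6 most abundant others, up to 8 called signalling genes, Pf4 and Ppbp. Ccr2, Ccr7, Ccr1l1, Cxcr2, Ccl8, Ccl11, Ccl22, Ccl24, Gnai2, Sdc1, Cmklr1 and the markers named beyond the most abundant of each list fall outside this rule and were chosen after their values were seen. Members and lists were chosen with earlier results of these data known. The test was tested on simulated data with known changes. DESeq2 1.42.0, limma 3.58.1, other scalings and filters, a replicate block and each library left out were alternatives. Libraries of a day differed by a chi-square of at least 22.9 per degree of freedom, so none was a duplicate. The number of libraries, 3 per day, limits the precision. Figures were drawn with matplotlib 3.10.9.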

Additional observations from a re-analysis of the deposited data

How the results depend on the processing

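The counts of 3 members higher and 12 lower stood under DESeq2, RLE scaling and the replicate block. Leaving out each library gave 3 higher and 10 to 13 lower. More members were tested without the filter (54), under filterByExpr (41) and at an FPKM of at least 0.1 (38). These gave 6, 7 and 6 members higher and 14, 16 and 16 lower. Of 26750, 17286 and 16994 genes they gave 1244, 1234 and 1184 higher and 1059, 1132 and 1117 lower. On log2(FPKM + 1), limma called 6 members and 438 genes lower, and this scale understates low genes. With the adjusted p alone 11 of 56 signalling genes were higher and 33 lower, and 3173 genes were higher and 3435 lower over the table. Cxcl10 was not called in any setting, and its log2 difference ran from -0.22 to 0.25 with each library left out, with -0.22 without day 0 replicate 2 and -0.14 without day 5 replicate 3. The labels do not say that replicate numbers mark pairs, so they were not taken as pairs. Same-numbered libraries of the days had correlations of their deviations of -0.0726, 0.147 and 0.0256. Those of unlike numbers ran from -0.145 to 0.111, and 3 libraries a day are too few to settle pairing. Of the 35 members under the filter, 20 had fewer than 100 counts in all, which limits their precision.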
